A study of Mus musculus with 28 samples.

Results

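The 10 genes described here encode the enzymes and droplet proteins with which a cell makes, stores and breaks down triglyceride: Gpam, Agpat2, Mogat2, Dgat1, Dgat2, Plin2, Plin3, Pnpla2, Mgll and Hilpda. They were chosen by gene name, and all 10 were found among the 29413 genes of the table for the BMP ligands and among the 55416 genes of the table for Tgfb. RNA was sequenced from mouse small-intestinal organoids, which are cultures of intestinal epithelium grown from crypts, of wild-type (C57BL/6) genotype. All organoids shared one growth medium and differed in the recombinant ligand added at 500 ng/ml for 24 h. In the table for the BMP ligands, untreated samples (n = 4) stood beside 4 samples with BMP2 and 3 each with BMP3, BMP4, BMP5 and BMP7. In the table for Tgfb, 3 untreated samples stood beside 3 samples with Tgfb. Per the title of the series, the study asks how such ligands act on enterocytes of the villus tip. Replicates carry Roman numerals, and nothing in the labels says that they came from separate animals or cultures, so the p-values measure the spread between these samples, which may be technical. In bulk RNA, a change in the share of a cell type and a change in the RNA per cell cannot be told apart.

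Enterocytes take up fatty acids and monoacylglycerol from the gut lumen and join them again into triglyceride. The monoacylglycerol route, which starts with Mogat2, carries most of this work after a meal, and the glycerol-3-phosphate route, which starts with enzymes such as Gpam and goes on through Agpat2, is the route common to most cells. Both end with Dgat1 or Dgat2. The product leaves the cell in chylomicrons or stays in cytosolic droplets, which are coated by perilipins such as Plin2 and Plin3 and are emptied by lipases, with Pnpla2 acting first and Mgll last, while Hilpda inhibits Pnpla2.

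The depth of the 20 samples of the BMP table lay between 21356032 and 24783573 recovered reads, and no pair of replicates agreed within sampling noise: the chi-square of reads per degree of freedom was at least 15.65. The 7 epithelial markers summed to 98140 to 109310 normalized counts without a ligand and 100680 to 111590 with BMP3. They summed to 585420 to 751040 with BMP2, 244430 to 350100 with BMP4, 176880 to 294440 with BMP5 and 218080 to 310570 with BMP7. The part of this epithelial sum in the changes below was not tested. Adipocyte markers, whose cells also express these genes, were at or near 0. Adipoq, Cfd and Lep were at 0 or not listed in all 20 samples, and Retn did not exceed 1.14 normalized counts. Of the 6 mesenchymal markers Dcn was not listed. The other 5 summed to 5.33 to 39.9 normalized counts untreated, 33.3 to 55.4 with BMP2 and 1.19 to 28.0 with the other ligands. The summed level of 5 enterocyte markers differed between ligands. It was 36390 to 66560 normalized counts without a ligand and 235400 to 268740 under BMP4. Lower ranges, which overlapped the untreated one only at its low end, were found for BMP2 (19134 to 36801), BMP5 (21130 to 39360) and BMP7 (19115 to 37300). For BMP3 the range was 35160 to 60440. What this enterocyte sum contributed to the changes below, such as the lower Dgat1 with BMP5 and BMP7, was not tested. The 5 immune markers summed to 166 to 225 normalized counts without a ligand, 783 to 1224 with BMP2, 288 to 371 with BMP5 and 324 to 443 with BMP7. The 4 endothelial markers summed to 570 to 776 untreated, 838 to 1027 with BMP2 and 869 to 1032 with BMP4. The part of neither was tested. In the Tgfb table the enterocyte sum was 1515 to 2034 TPM without and 1306 to 1879 TPM with Tgfb. The immune sum was 3.66 to 4.20 and 13.4 to 14.7 TPM, and the epithelial sum 2309 to 2525 and 8514 to 11386 TPM. The mesenchymal sum was 0.260 to 0.279 and 0.537 to 0.834 TPM. The part of the mesenchymal markers in either table, and of the others in the Tgfb table, was not tested. Values below are normalized counts (gene counts divided by one factor per sample by the authors) for the BMP ligands and TPM (transcript levels scaled by length and by library total) for Tgfb. A difference is on the scale of log2(value + 1), with its standard error, and a call is an adjusted p under 0.05 in limma's moderated test across all genes tested.

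With BMP2, 7 of the 10 genes were called higher and 3 lower, beside 36.8% and 38.4% of all 14746 genes tested. With BMP4, 8 were called higher and 1 lower, beside 33.7% and 31.4%. With BMP5, 4 were called higher and 2 lower, beside 16.5% and 9.87%, and with BMP7, 5 were called higher and 2 lower, beside 19.2% and 13.2%. With BMP3 none was called, and the share of all genes called was 0%. With Tgfb, 6 of the 9 genes tested were called higher and 3 lower, beside 27.4% and 29.3% of 12959 genes, and Mgll lay below the filter. All 10 genes differed among the 5 BMP ligands in an F-test, as did 84.1% of all genes. The median difference of the 10 genes was 1.39 with BMP2 and 2.09 with BMP4, against -0.03 and 0.04 over all genes tested. It was 0.43 with BMP5, 0.40 with BMP7 and -0.02 with BMP3, against -0.03, -0.05 and 0.01. With Tgfb the median of the 9 genes was 0.49, against -0.04. The comparisons of BMP ligands with the untreated samples share those 4 samples, so their values are only set side by side. All these counts come from a fit that left out the replicate number. With that number as a block, more of the 10 genes were called for BMP4, BMP5 and BMP7, as were more of all genes.

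**Figure D1:**
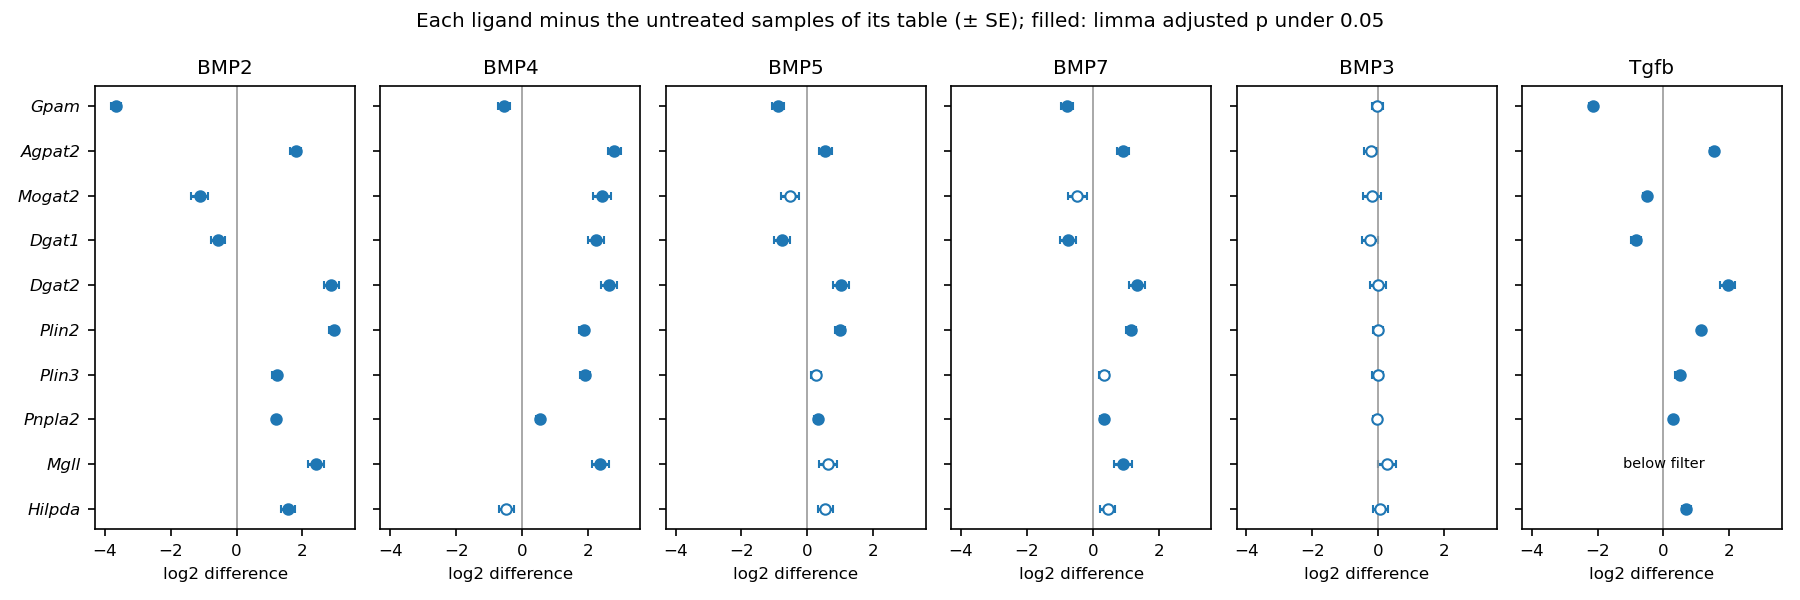
Log2 difference of each gene between a ligand and the untreated samples of the same table (± SE), with filled points for an adjusted p under 0.05 by limma. Gpam lies left of 0 in the panels of BMP2, BMP4, BMP5, BMP7 and Tgfb, while Mogat2 and Dgat1 lie right of 0 only with BMP4.

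An enzyme that starts the glycerol-3-phosphate route, Gpam (ENSMUSG00000024978), fell most with BMP2. Its level was 1520, 1960, 1370 and 1720 normalized counts in the untreated replicates II, III, IV and VI and 116, 139, 126 and 132 with BMP2. The groups did not overlap, and the lowest untreated sample was far above the highest with BMP2. The difference was -3.66 ± 0.16 (adjusted p = 8.25e-13), to 0.0792 times the untreated level. With BMP4 the 3 samples held 934, 1250 and 1190, all below the untreated ones, a difference of -0.54 ± 0.17 (adjusted p = 0.0104; 0.0708 without BMP4 replicate II and 0.000718 with the replicate number as a block). The level was 719 to 1030 with BMP5 and 779 to 1250 with BMP7, again below every untreated sample, and the differences were -0.89 ± 0.17 (adjusted p = 0.000868) and -0.78 ± 0.17 (adjusted p = 0.00204). With Tgfb, TPM was 20.9, 23.6 and 25.1 without the ligand and 4.72, 5.01 and 3.70 with it, a difference of -2.15 ± 0.12 (adjusted p = 2.98e-05). Gpam is overlapped by other annotated genes (Gm31356 and Gm31418 in RefSeq's GRCm38.p6), and the strand of counting is not stated, so its reads are uncertain to that extent. Gpat3 and Gpat4 encode other enzymes of this first step, and they did not fall with BMP2. Gpat3 held 355 to 686 normalized counts untreated, 568 to 1020 with BMP2 and 1520 to 2080 with BMP4. Gpat4 held 1590 to 1840 untreated, 2440 to 3080 with BMP2 and 1120 to 1460 with BMP4.

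Agpat2 (ENSMUSG00000026922), which adds the next fatty acid on the same route, moved the other way. It was at 706, 718, 824 and 896 normalized counts in the 4 untreated samples, 2530, 2340, 2690 and 3410 with BMP2 and 5440, 5210 and 5840 with BMP4. Every treated sample of both ligands was above every untreated one. The differences were 1.79 ± 0.18 (adjusted p = 2.80e-08) and 2.81 ± 0.19 (adjusted p = 8.12e-10). With BMP5 the samples held 843, 1110 and 1600 and overlapped the untreated range, and with BMP7 they held 1380, 1270 and 1840 and did not. The difference with BMP7 was 0.92 ± 0.19 (adjusted p = 0.00114). With BMP5 it was 0.55 ± 0.19 (adjusted p = 0.0408), which lost the call without any filter on low values (adjusted p = 0.0649), with only the compared groups in the fit (0.0698) and without untreated II, III or IV or BMP5 III or VI (0.0564 to 0.295). It was higher in 3 of 3 same-number pairs, and the block gave adjusted p = 0.00101. Under Tgfb the TPM rose from 35.3, 34.9 and 38.5 to 90.5, 108 and 126, a difference of 1.54 ± 0.12 (adjusted p = 0.000125).

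The promoter windows of 4 genes are shown because they stand for the patterns seen: Gpam fell with BMP2, BMP4, BMP5, BMP7 and Tgfb, Agpat2 and Plin2 rose with those ligands, and Hilpda rose with BMP2 and not with BMP4. They are RefSeq's windows of 250 bases before and 50 after a start, in GRCm38.p6, which is not the GRCm39 build the submitters name; RefSeq's table held windows for 7 of the 10 genes, and none was matched for Dgat1, Dgat2 and Mogat2. Capitals mark AGGTCA (the half-site of nuclear receptors such as PPARs), ACGTG and GCGTG (the core of HIF sites) and GGCGCC (a palindrome bound by BMP SMADs), searched on both strands.
Gpam, chr19:55127189-55127488, minus strand: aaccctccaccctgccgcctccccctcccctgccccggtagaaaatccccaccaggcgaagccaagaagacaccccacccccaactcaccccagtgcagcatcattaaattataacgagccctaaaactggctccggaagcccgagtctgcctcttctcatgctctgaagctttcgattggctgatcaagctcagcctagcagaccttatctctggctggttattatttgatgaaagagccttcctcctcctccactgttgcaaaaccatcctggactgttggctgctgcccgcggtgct
Gpam, second start, chr19:55099428-55099727, minus strand: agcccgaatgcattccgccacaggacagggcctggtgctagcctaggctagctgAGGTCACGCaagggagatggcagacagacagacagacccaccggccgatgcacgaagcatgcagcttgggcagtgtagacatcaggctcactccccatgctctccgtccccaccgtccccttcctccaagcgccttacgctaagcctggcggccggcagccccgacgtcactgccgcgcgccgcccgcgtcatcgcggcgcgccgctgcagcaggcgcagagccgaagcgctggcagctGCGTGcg
Agpat2, chr2:26604368-26604667, minus strand: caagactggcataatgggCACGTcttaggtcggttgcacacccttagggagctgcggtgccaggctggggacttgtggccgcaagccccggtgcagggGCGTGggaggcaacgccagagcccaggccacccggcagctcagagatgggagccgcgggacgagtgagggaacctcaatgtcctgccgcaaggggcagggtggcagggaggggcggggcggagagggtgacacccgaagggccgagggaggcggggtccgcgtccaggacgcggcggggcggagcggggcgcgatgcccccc
Plin2, chr4:86670010-86670309, minus strand: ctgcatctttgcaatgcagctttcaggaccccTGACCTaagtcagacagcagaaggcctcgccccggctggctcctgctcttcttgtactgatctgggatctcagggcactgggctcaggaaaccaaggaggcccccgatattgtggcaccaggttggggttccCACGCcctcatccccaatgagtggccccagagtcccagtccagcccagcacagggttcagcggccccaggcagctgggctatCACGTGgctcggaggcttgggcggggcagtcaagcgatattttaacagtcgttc
Hilpda, chr6:29272238-29272537, plus strand: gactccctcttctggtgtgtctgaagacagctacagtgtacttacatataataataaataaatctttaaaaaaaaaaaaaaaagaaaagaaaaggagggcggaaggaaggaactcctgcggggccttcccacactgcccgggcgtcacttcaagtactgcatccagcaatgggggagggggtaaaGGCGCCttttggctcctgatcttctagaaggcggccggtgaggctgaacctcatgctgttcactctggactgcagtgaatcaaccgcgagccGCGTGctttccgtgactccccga
Over 32851 windows of the same length, AGGTCA was found in 16.3%, ACGTG in 19.6%, GCGTG in 32.4% and GGCGCC in 11.9%. These shares were not adjusted for the content of G and C, whose median over those windows was 52.7%. It was 55.7% and 68% in the first and second Gpam windows, 72% in that of Agpat2, 60.7% in that of Plin2 and 50.7% in the Hilpda window shown. AGGTCA was in the Plin2 window and in the second Gpam window, where it shares its last 2 bases with a GCGTG match on the other strand. ACGTG was in the Agpat2 window once and in the Plin2 window as CACGTG, which matches on both strands. GGCGCC was in the Hilpda window. A second Hilpda window, at chr6:29272376-29272675, overlaps the one shown and held ACGTG once, GCGTG 2 times and GGCGCC once. The first Gpam window held none of the 4 motifs. Of the windows not shown, those of Plin3 and Pnpla2, which rose with BMP2 and BMP4, held none either. Mgll also rose with both ligands. Its window at chr6:88724162-88724461 held ACGTG 2 times, GCGTG 2 times and GGCGCC once, and that at chr6:88724454-88724753 ACGTG once and GCGTG 6 times. A link between motifs and the response to a ligand was not tested. A match describes letters in a window and not a site of binding.

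Mogat2 (ENSMUSG00000052396), the first enzyme of the monoacylglycerol route, moved in opposite directions with BMP2 and BMP4. Its level was 485, 574, 877 and 1110 normalized counts without a ligand, 286, 280, 340 and 448 with BMP2 and 3890, 4330 and 3570 with BMP4. All BMP2 samples were below, and all BMP4 samples above, every untreated sample. The differences from untreated were -1.12 ± 0.26 (adjusted p = 0.000651) and 2.44 ± 0.28 (adjusted p = 3.74e-07). With BMP5 it was 382 to 701 and with BMP7 391 to 722, which overlapped the untreated range; the differences of -0.52 ± 0.28 and -0.46 ± 0.28 did not pass (adjusted p = 0.185 and 0.209). In the Tgfb table TPM was 28.5, 27.8 and 35.6 without and 20.8, 20.2 and 22.8 with Tgfb, without overlap, a difference of -0.50 ± 0.11 (adjusted p = 0.00919).

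The last step has 2 enzymes, and Dgat1 (ENSMUSG00000022555), which takes part in making triglyceride for chylomicrons in enterocytes, rose with BMP4 and fell with the other ligands that changed it. It was at 1760, 1810, 2540 and 2960 normalized counts untreated and at 10700, 10100 and 10700 with BMP4, 4.74 times as high and far apart (difference 2.25 ± 0.23, adjusted p = 1.33e-07). With BMP2 the samples held 1150, 1230, 1770 and 2020 and overlapped the untreated ones. That difference of -0.56 ± 0.22 had an adjusted p of 0.0258, which rose to 0.0692 to 0.0999 without any one of untreated IV, untreated VI, BMP2 II and BMP2 III. With BMP5 the level was 1000 to 1760 and with BMP7 1090 to 1750, at or below the lowest untreated sample. The differences were -0.77 ± 0.23 (adjusted p = 0.01998) and -0.75 ± 0.23 (adjusted p = 0.0190). Neither held without untreated IV or VI or without II or III of the same ligand (adjusted p 0.0503 to 0.131 for BMP5 and 0.05002 to 0.101 for BMP7). Within same-number pairs Dgat1 was lower in 3 of 3 with each ligand, and the replicate number as a block gave adjusted p = 0.000222 and 0.000227. Dgat1 was also lower in 3 of 3 pairs with BMP3, where neither the main fit nor the block called it. With Tgfb, TPM was 121, 112 and 146 without and 67.1, 61.9 and 82.1 with the ligand (difference -0.84 ± 0.14, adjusted p = 0.00291).

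Dgat2 (ENSMUSG00000030747), the other enzyme of the last step and the neighbour of Mogat2 on chromosome 7 with no annotated gene between them in GRCm38.p6, rose with BMP2, BMP4, BMP5, BMP7 and Tgfb. Untreated samples held 573, 618, 715 and 831 normalized counts, those with BMP2 3850, 4010, 6160 and 6480, and those with BMP4 4100, 3900 and 4760. The groups with BMP2 and BMP4 lay apart from the untreated ones, by 2.88 ± 0.22 (adjusted p = 1.01e-09) and 2.64 ± 0.24 (adjusted p = 2.65e-08). With BMP5 the level was 931 to 2010 and with BMP7 1370 to 2400, all above the untreated samples, with differences of 1.01 ± 0.24 (adjusted p = 0.00422) and 1.35 ± 0.24 (adjusted p = 0.000295). With Tgfb, TPM went from 14.8, 14.1 and 23.2 to 61.3, 58.1 and 89.5 (difference 1.95 ± 0.24, adjusted p = 0.000708).

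The ratio of Dgat2 to Dgat1 took different values with the ligands. In normalized counts it was 0.307 ± 0.0309 (SD, n = 4) untreated, 3.32 ± 0.119 (SD, n = 4) with BMP2, and 0.405 ± 0.0348 (SD, n = 3) with BMP4, where both genes rose. For BMP5 it came to 1.09 ± 0.310, for BMP7 to 1.32 ± 0.145 and for BMP3 to 0.362 ± 0.0250 (SD, n = 3 in each group). In TPM, where levels of 2 genes can be compared, Dgat2 was at 0.136 ± 0.0198 of Dgat1 without Tgfb and 0.981 ± 0.0953 with it (SD, n = 3 each). The range of the ratio with BMP2, 3.21 to 3.48, did not touch that of any other group, and these ratios were not tested.

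**Figure D2:**
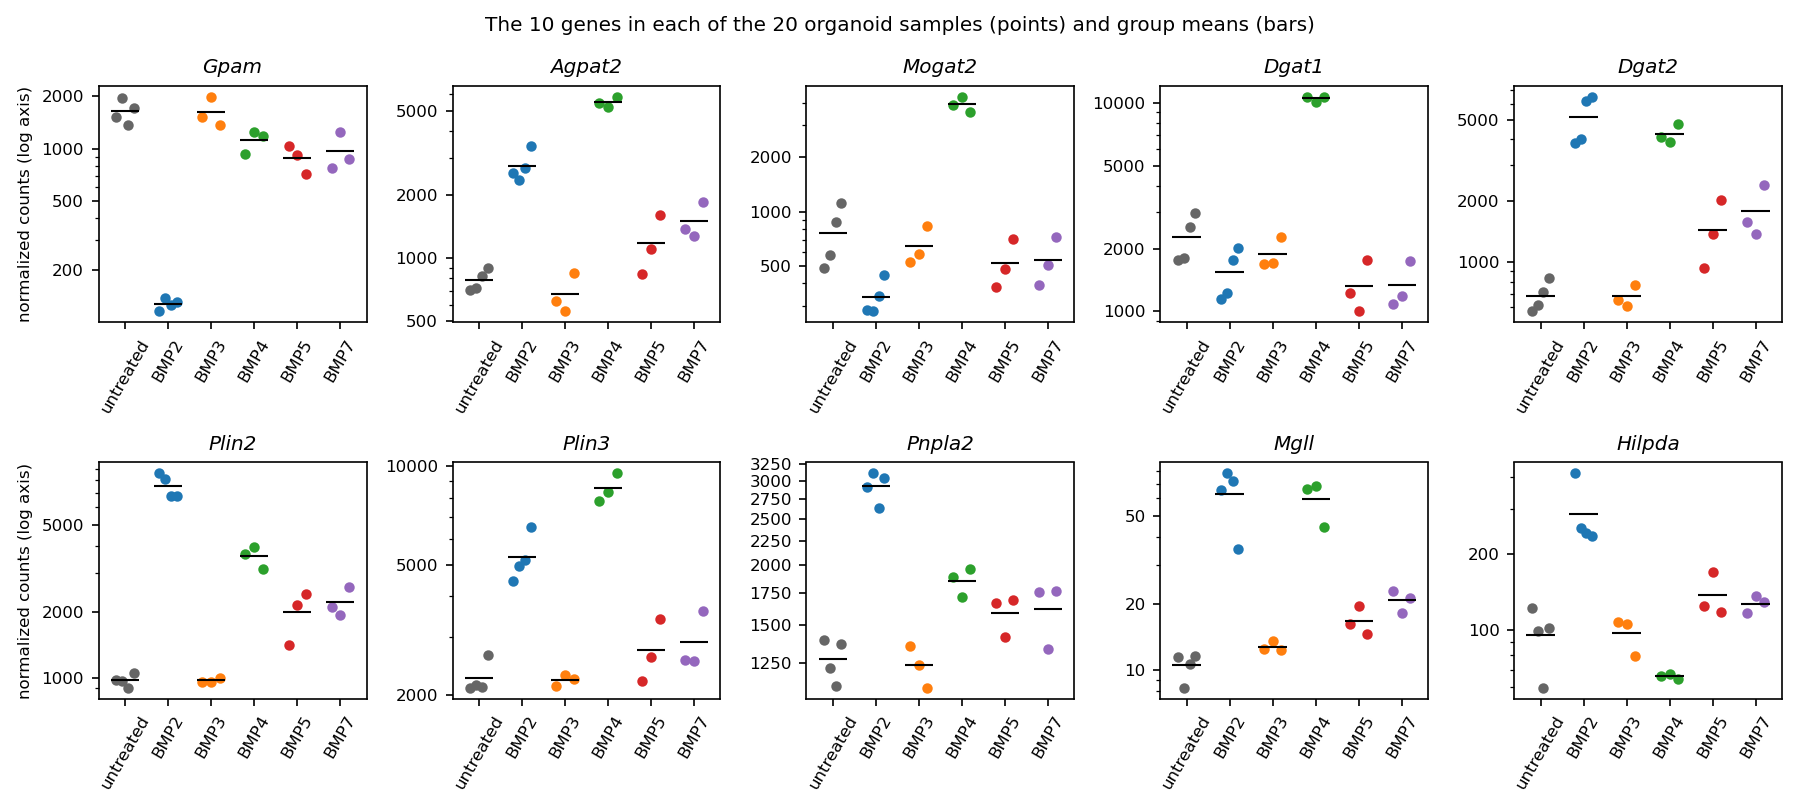
Normalized counts of the 10 genes (log axis) in each of the 20 samples of the BMP table, with bars for the group means. The 4 untreated samples of Dgat1 lie between 1760 and 2960, and the 3 with BMP4 between 10100 and 10700.

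Of the droplet coat proteins, Plin2 (ENSMUSG00000028494), which sits on droplets and is protected from degradation there, rose with BMP2, BMP4, BMP5, BMP7 and Tgfb. It was at 981, 967, 901 and 1050 normalized counts untreated and at 8580, 8070, 6770 and 6740 with BMP2. With BMP4 it was at 3660, 3950 and 3140. All treated samples were above the untreated ones, and those with BMP2 were above those with BMP4. The differences from untreated were 2.94 ± 0.14 (adjusted p = 1.44e-12) and 1.87 ± 0.15 (adjusted p = 4.72e-09). With BMP5 it was 1420, 2150 and 2410, and with BMP7 2110, 1930 and 2600, differences of 1.00 ± 0.15 (adjusted p = 6.60e-05) and 1.17 ± 0.15 (adjusted p = 8.53e-06). With Tgfb, TPM went from 43.1, 51.2 and 47.1 to 113, 99.9 and 102 (difference 1.14 ± 0.09, adjusted p = 0.000103). Plin2 overlaps another annotated gene (Gm12551), with the same uncertainty.

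Plin3 (ENSMUSG00000024197), a perilipin that moves from the cytosol to growing droplets, rose with BMP2, BMP4 and Tgfb. Its level was 2100, 2150, 2120 and 2650 normalized counts untreated, 4440, 4940, 5170 and 6510 with BMP2 and 7810, 8330 and 9510 with BMP4. The 3 ranges did not overlap. The differences were 1.22 ± 0.14 (adjusted p = 3.16e-07) and 1.92 ± 0.15 (adjusted p = 5.60e-09). With BMP5 (2210 to 3400) and BMP7 (2540 to 3620) the samples overlapped the untreated ones, and the differences of 0.26 ± 0.15 and 0.35 ± 0.15 did not pass (adjusted p = 0.228 and 0.0891). With the replicate number as a block they did (adjusted p = 0.00922 and 0.000876). With Tgfb, TPM went from 51.9, 58.2 and 63.2 to 71.1, 79.7 and 95.2 (difference 0.49 ± 0.13, adjusted p = 0.0169; 0.0532 without untreated I).

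Of the lipolytic genes, Pnpla2 (ENSMUSG00000025509), the lipase that removes the first fatty acid, was at 1400, 1220, 1120 and 1370 normalized counts untreated and 2910, 3110, 2630 and 3040 with BMP2. It was at 1890, 1720 and 1960 with BMP4. These groups did not overlap, and the differences were 1.20 ± 0.10 (adjusted p = 5.25e-09) and 0.54 ± 0.11 (adjusted p = 0.000341). With the samples scaled to the same total, the difference with BMP4 was 0.14 (adjusted p = 0.172), while the median of all genes moved from 0.04 to -0.35. With BMP5 (1420 to 1690, above the untreated samples) and BMP7 (1340 to 1770, overlapping them) it was 0.32 ± 0.11 (adjusted p = 0.0432) and 0.34 ± 0.11 (adjusted p = 0.0275). Neither held without a filter (adjusted p = 0.0803 and 0.0512), with only the compared groups (0.0568 and 0.0609), or without untreated III or IV or replicate II or VI of the ligand (0.0963 to 0.167 for BMP5 and 0.0653 to 0.134 for BMP7). Both were higher in 3 of 3 same-number pairs, and the block gave adjusted p = 0.00946 and 0.00499. With Tgfb, TPM went from 44.6, 45.8 and 48.9 to 52.3, 55.3 and 65.3 (difference 0.30 ± 0.10, adjusted p = 0.0372), and the call ended without untreated I, II or III, Tgfb II or III (0.0561 to 0.102) and without a filter (0.0608).

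Mgll (ENSMUSG00000033174), which cleaves monoacylglycerol at the end of lipolysis, was the least abundant of the 10 genes in TPM. Its untreated samples held 11.5, 8.30, 10.6 and 11.6 normalized counts (10 to 14 reads), those with BMP2 65.8, 78.0, 71.8 and 35.4, and those with BMP4 66.4, 68.4 and 44.3. Every sample with BMP2 or BMP4 was above the untreated ones, though with few reads. The differences were 2.42 ± 0.24 (adjusted p = 3.52e-08) and 2.38 ± 0.26 (adjusted p = 2.53e-07). With BMP7 (18.2 to 22.7) it was 0.92 ± 0.26 (adjusted p = 0.0114) and with BMP5 (14.6 to 19.5) 0.63 ± 0.26, which did not pass (adjusted p = 0.0872; 0.0474 with the replicate number as a block). In the Tgfb table it was 0.236, 0.119 and 0.113 TPM without and 0.361, 0.270 and 0.278 with Tgfb, below the filter of 1 TPM and therefore not tested. Mgll also overlaps another annotated gene (Gm26588).

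Hilpda (ENSMUSG00000043421), a hypoxia-inducible droplet protein that inhibits Pnpla2, was at 122, 99.6, 59.4 and 102 normalized counts untreated. With BMP2 it was at 414, 253, 241 and 234, above every untreated sample, and replicate II stood above the other 3. The difference was 1.57 ± 0.21 (adjusted p = 1.85e-06). With BMP4 it was at 66.4, 67.3 and 64.6, within the untreated range, a difference of -0.48 ± 0.23 that did not pass (adjusted p = 0.0727). It passed with the replicate number as a block (0.00763), in edgeR (0.0288), with samples scaled to the same total (0.00235) and without untreated IV (0.00695). Hilpda was lower with BMP4 in 3 of 3 same-number pairs. With BMP5 (118 to 170) and BMP7 (117 to 136) the differences of 0.55 ± 0.23 and 0.45 ± 0.23 did not pass (adjusted p = 0.0868 and 0.140), although BMP5 passed without untreated II (0.0443). With Tgfb, TPM went from 5.10, 6.61 and 5.42 to 9.17, 11.5 and 9.03 (difference 0.70 ± 0.13, adjusted p = 0.00435).

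**Figure D3:**
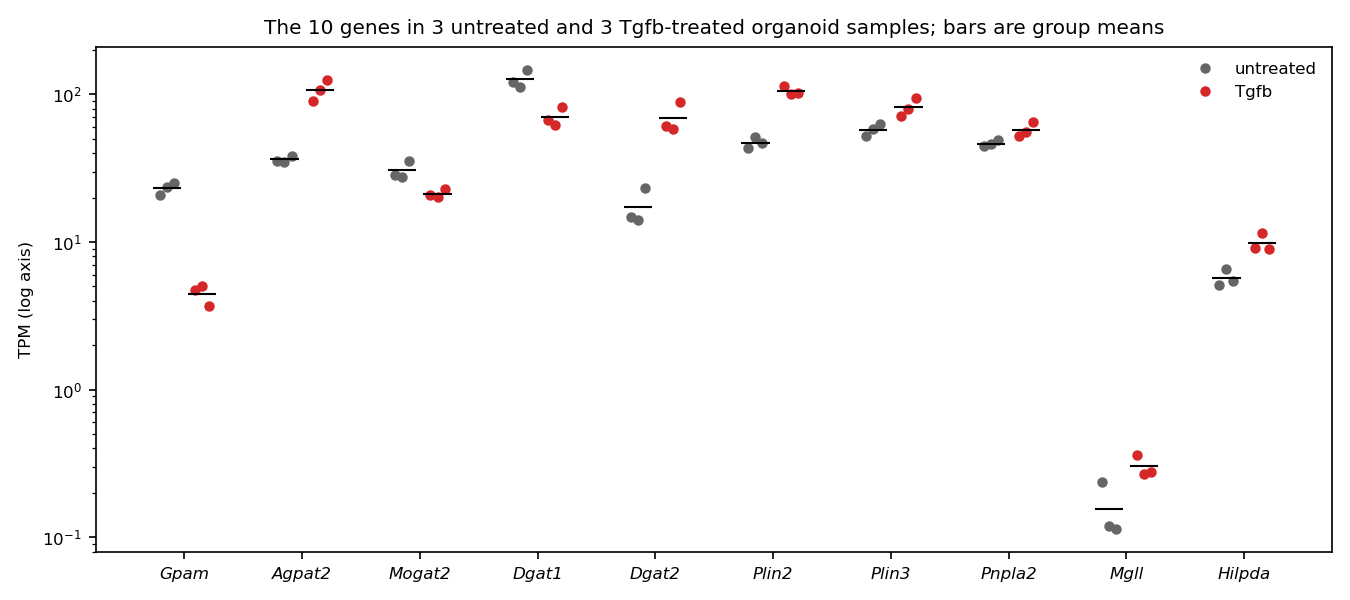
TPM of the 10 genes (log axis) in 3 untreated and 3 Tgfb-treated samples, with bars for the means. Dgat2 rises from 14.1 to 23.2 TPM to 58.1 to 89.5 TPM, and Gpam falls from 20.9 to 25.1 TPM to 3.70 to 5.01 TPM.

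In the untreated samples of the Tgfb table, where levels can be compared between genes, Dgat1 was highest at 126 ± 17.7 TPM (SD, n = 3), followed by Plin3 at 57.8 ± 5.69, Plin2 at 47.1 ± 4.06 and Pnpla2 at 46.4 ± 2.20. Plin2 and Pnpla2 differed by less than their spread. Agpat2 followed at 36.2 ± 1.94, Mogat2 at 30.6 ± 4.31, Gpam at 23.2 ± 2.10 and Dgat2 at 17.4 ± 5.05, and Hilpda (5.71 ± 0.798) and Mgll (0.156 ± 0.0693) were lowest. With Tgfb the order was led by Agpat2 at 108 ± 17.5 and Plin2 at 105 ± 7.12 TPM, within each other's spread, and Dgat1 (70.4 ± 10.5) and Dgat2 (69.6 ± 17.3) were likewise close.

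BMP3 left the 10 genes near the untreated level. The differences lay between -0.24 (Dgat1) and 0.27 (Mgll), each with a 95% interval that crosses 0, and the intervals reached no further than -0.76 and 0.82. Of the 10 genes, 0 were called by limma, and 0 by edgeR and DESeq2, and 0 had an unadjusted p under 0.05. Within same-number pairs, though, Dgat1 was lower in 3 of 3 with BMP3, and Plin3 and Mgll were higher in 3 of 3. Such agreement of 3 pairs thus also occurred with a ligand that changed none of the 10 genes by these tests. Over all genes, limma and edgeR called 0 and DESeq2 1, with 110 genes at an unadjusted p under 0.05 in limma.

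Set against each other without the untreated samples, BMP2 and BMP4 differed in 8 of the 10 genes, 3 higher and 5 lower with BMP2, beside 33.4% and 33.4% of all genes. BMP2 was lower than BMP4 by a difference of -3.56 ± 0.28 in Mogat2, -3.11 ± 0.17 in Gpam and -2.81 ± 0.23 in Dgat1. These 3 genes, of the 2 routes into triglyceride and its last step, had the widest gaps. Agpat2 (-1.02 ± 0.19) and Plin3 (-0.71 ± 0.15) were lower with BMP2 too. Hilpda (2.05 ± 0.23), Plin2 (1.07 ± 0.15) and Pnpla2 (0.65 ± 0.11) were higher with BMP2. The adjusted p of the 8 genes lay between 2.55e-11 and 0.000514. Dgat2 (0.23, 95% interval -0.27 to 0.74) and Mgll (0.04, -0.51 to 0.59) were not called, which does not show that the ligands act alike on them.

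**Figure D4:**
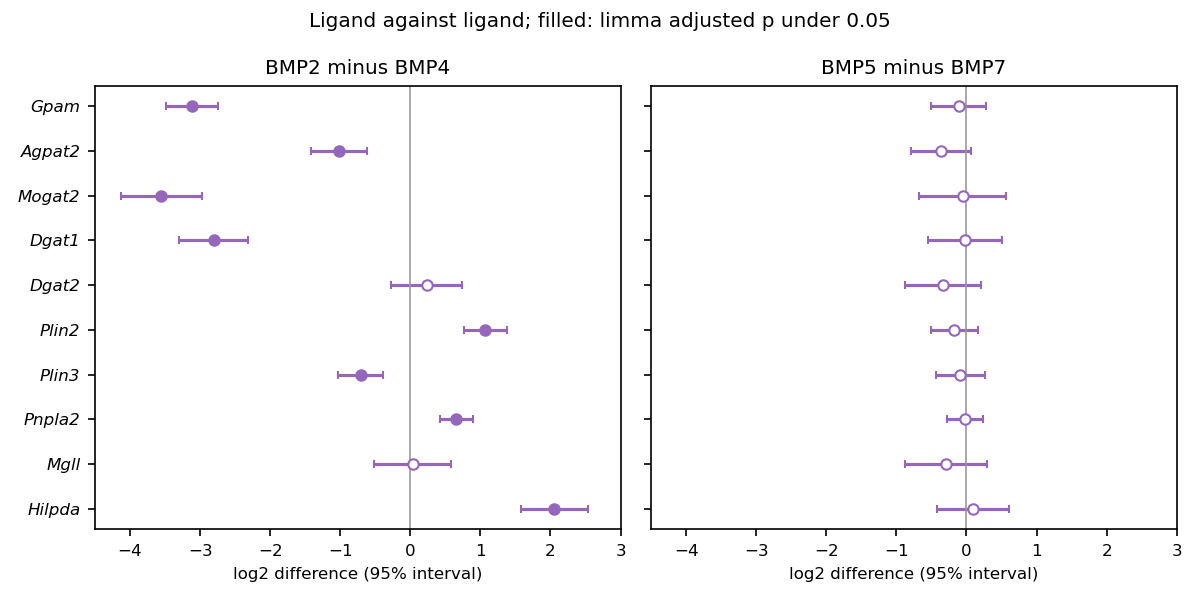
Log2 difference between 2 ligands with its 95% interval, filled where limma's adjusted p was under 0.05. BMP2 minus BMP4 reaches -3.56 for Mogat2 and 2.05 for Hilpda, and no interval of BMP5 minus BMP7 lies clear of 0.

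BMP5 and BMP7 were not told apart in any of the 10 genes: 0 were called, beside 0.00678% higher and 0.00678% lower of all genes. Differences of BMP5 minus BMP7 ran from -0.37 (Agpat2, 95% interval -0.80 to 0.06) to 0.10 (Hilpda, -0.42 to 0.61). The intervals of the other genes stayed within -0.88 and 0.57. Of the 10 genes, 0 had an unadjusted p under 0.05, and edgeR and DESeq2 called 0. Over all genes limma called 2, edgeR 4 and DESeq2 23, and 347 had an unadjusted p under 0.05 in limma. A p that misses the threshold does not show that the 2 ligands act alike.

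Across the 20 samples some of the 10 genes varied together, and the values are descriptions, since ligand groups set most of them. Agpat2 and Plin3 had a Pearson r of 0.976 (0.814 within groups), and Mogat2 and Dgat1 0.957 (0.882 within groups). Gpam and Pnpla2 had -0.918 (-0.243 within groups). The values within groups come from deviations from group means, and replicate numbers recur across groups. They may therefore also carry shifts shared by a replicate number. Mogat2 and Dgat1 were both highest in replicate VI untreated and with BMP2, BMP5 and BMP7. With BMP4, Mogat2 was highest in replicate III, and Dgat1 was at 10700 normalized counts in both II and VI. Over 14746 genes, the patterns most like those of Dgat1 were Tm6sf2 (r = 0.992) and Npc1l1 (0.990), and those most like Mogat2 were Bco2 (0.990) and Slc3a1 (0.989). For Dgat2 they were Krt20 (0.992) and Myo18a (0.992), for Plin2 Trp53inp2 (0.994) and Cystm1 (0.993), and for Gpam Mrpl42 (0.991) and Timm9 (0.988). Agpat2 and Plin3 shared Pitpna (0.989 with each), with Enpp3 (0.989) and Tmem9b (0.990) beside it. Pnpla2 was most like Gnb2 (0.988) and Cnppd1 (0.987), Mgll like Tgoln1 (0.975) and Slc26a2 (0.972), and Hilpda like Snapc2 (0.964) and Emp2 (0.952).

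A list of 29 other genes of triglyceride synthesis and droplets was read beside the 10. Of 23 that were tested, 13 rose and 8 fell with BMP2, beside 36.8% and 38.4% of all genes, and 18 rose and 3 fell with BMP4, beside 33.7% and 31.4%. The 8 that fell with BMP2 are a share near the background. With BMP5, 6 rose and 4 fell (16.5% and 9.87% of all genes), and with BMP7, 7 rose and 6 fell (19.2% and 13.2%). None was called with BMP3. With Tgfb, 8 rose and 6 fell of 21 tested, beside 27.4% and 29.3% of all genes. The median difference was 0.47 for BMP2 and 1.60 for BMP4, while it was -0.03, 0.04 and 0.16 for BMP5, BMP7 and Tgfb in that order. With BMP4, the lipolysis genes Lipe, Abhd5, Abhd6 and Lipa rose, as did 8 of 9 of the droplet coat and formation genes. G0s2, an inhibitor of lipolysis, also rose (35.6 to 104 normalized counts). It reached the filter's mean of 10 only through these samples, and Cidea only through those with BMP2 (10.6 to 36.3). The counts above hold both genes, so their rises with these ligands were favoured by the filter. Fitm1, Mogat1, Plin1, Plin4, Plin5 and Pnpla3 lay below the filter or were not listed in both tables, and Cidea and G0s2 in the Tgfb table.

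The largest changes in that list with BMP2 were in Cidec, a droplet fusion protein, at 3.11, and in Hsd17b13, a droplet-bound dehydrogenase, at -4.79. Hsd17b13 held 638 to 1510 normalized counts untreated, 10.6 to 106 with BMP2 and 2350 to 4810 with BMP4, so that it fell with one and rose with the other. Lipa, the lysosomal acid lipase, rose most with BMP4 (3.35), and Agpat3 fell most (-1.67). With BMP5 and BMP7 the largest rise was in Cidea, a relative of Cidec (2.39 and 2.25). G0s2, an inhibitor of Pnpla2, fell most (-2.50 and -2.49). Both had few reads: Cidea held 1 to 5 reads untreated and 11 to 21 with BMP5, and G0s2 held 8 to 29 untreated, 0 to 3 with BMP5 and 0 to 5 with BMP7, so these fitted differences are imprecise. With Tgfb, Cidec rose (2.53) and Hsd17b13 fell (-3.74).

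**Figure D5:**
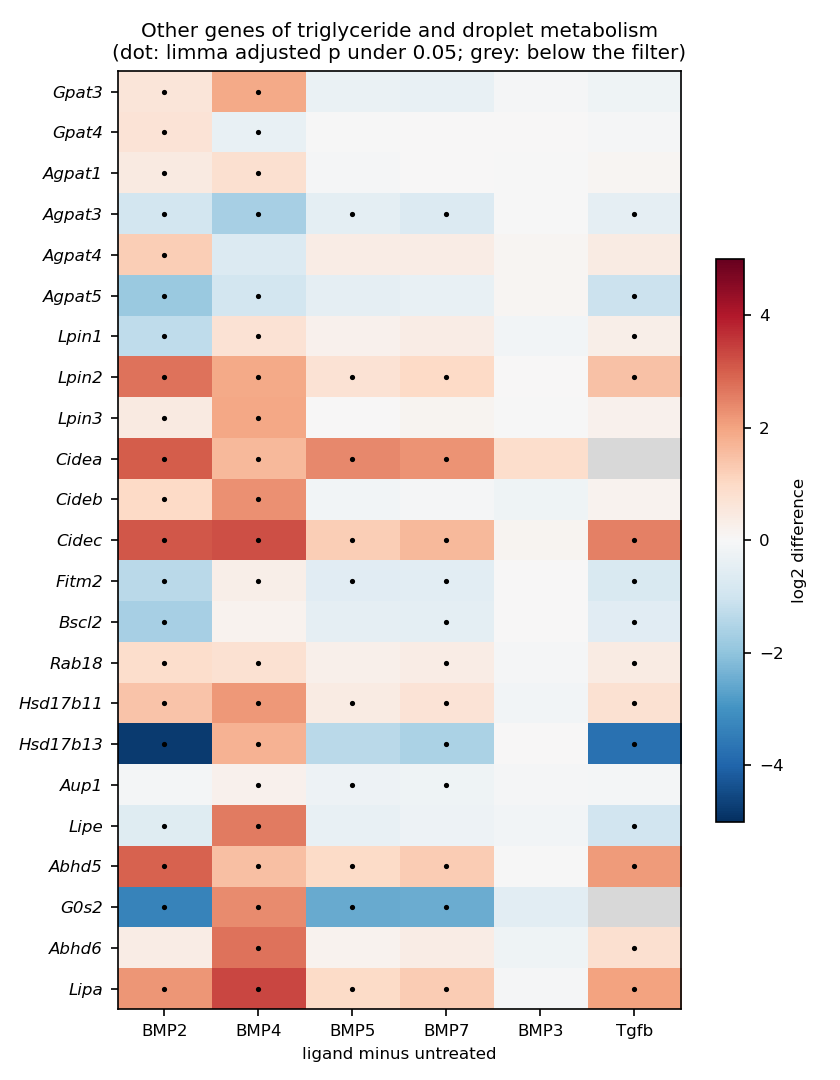
Log2 difference of the other genes of triglyceride and droplet metabolism for each ligand, red for higher and blue for lower, with a dot for an adjusted p under 0.05 by limma and grey below the filter. Of the 23 genes tested with BMP4, 18 are dotted and higher.

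Lists of genes taken as targets of 2 regulators of these pathways were read beside the 10 genes. Of 12 PPAR target genes, 10 rose and 0 fell with BMP4 (median 1.97), beside 33.7% and 31.4% of all genes. With BMP2, 5 rose and 4 fell (median -0.30), beside 36.8% and 38.4%, which is near the background. With BMP5, 1 rose and 2 fell (16.5% and 9.87% of all genes), and with BMP7, 3 rose and 3 fell (19.2% and 13.2%). With Tgfb, 4 rose and 4 fell of 10 tested (27.4% and 29.3%). The same shares stand beside the HIF targets. Of 12 HIF target genes, 8 rose and 0 fell with BMP4, and 7 rose and 1 fell with BMP2. Hilpda itself was lower with BMP4, a difference that did not pass in the main fit. With BMP5 and BMP7, 1 rose and 0 fell each, and with Tgfb, 5 rose and 1 fell. The split of calls over all genes depended on the scaling. With equal totals 3627 genes rose and 7783 fell with BMP2 (5420 and 5657 as deposited), 3100 and 6864 with BMP4 (4964 and 4633), and 2587 and 2725 with BMP7 (2833 and 1940). The medians of all genes were then -0.48, -0.35 and -0.12, against -0.03, 0.04 and -0.05 as deposited. With quantile normalization 2397 rose and 2413 fell with BMP5 (2429 and 1455) and 2716 and 2938 with BMP7. Each called difference between a BMP ligand and the untreated samples kept its direction in these genes under both scalings, and each called difference with Tgfb did so under quantile normalization and trimmed mean scaling, the 2 that were run there.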

How the data were processed

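The values are the authors' own. Per the submitters' processing notes, reads were handled with Trim Galore, Salmon and DESeq2 on GRCm39, without versions. The deposited BMP table holds a signal: normalized counts, which are gene counts divided by one factor per sample and rounded to 3 digits. Whole reads were recovered by dividing by the value of 1 read (0.826 to 1.28); of 180721 values of up to 20 reads, 98.96% were whole within 0.05 reads, and 100% within 0.1, a tolerance chosen after the first was seen. About 21.0% of values above 0 exceed 999 reads and are known to 3 digits. The deposited Tgfb table holds TPM, whose depth is unknown.

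limma 3.58.1 (R 4.3.3), with a trend, was fitted to log2(value + 1) over genes with a mean of at least 10 normalized counts (14746) or 1 TPM (12959), with all groups of a table in one fit, Benjamini-Hochberg adjustment over all genes tested, and two-sided tests. edgeR 4.0.16 and DESeq2 1.42.0 on the recovered reads, other pseudocounts, filters and scalings, the replicate number as a block and leaving out each replicate were alternatives. The scripts were tested on simulated data. Numbers shared by BMP3, BMP4, BMP5 or BMP7 and the untreated samples were taken to pair the samples. Every same-number correlation of deviations there was over 0.1 (0.158 to 0.553). The main fit left this pairing out, and the block was run only as an alternative. Untreated VI had no partner with BMP3, nor untreated IV with BMP4, BMP5 or BMP7. For BMP2, 3 of 4 pairs were over 0.1 and for Tgfb 0 of 3, so these were not taken as paired. BMP2 carries the same numbers as the untreated samples, and the labels state no pairing for any group. This split between ligands therefore rests on the cutoff alone and not on the design. Which samples shared a sequencing run is not given in the sources used here, so runs and groups cannot be told apart. The 10 genes, the lists and the rule for named genes (all 10 genes, the largest rise and fall of the pathway list in each comparison, the 2 most alike genes) were chosen with earlier results of these data known. Another table, of 2 mesenchyme samples without replicates, was not used here.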

Additional observations from a re-analysis of the deposited data

Results flagged for a closer look

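Plin3 in untreated replicate VI (2650 normalized counts) stood far from the other 3 untreated samples (2100 to 2150). Replicate VI was also the highest for Plin3 with BMP2 (6510), BMP4 (9510), BMP5 (3400) and BMP7 (3620). Hilpda in BMP2 replicate II (414) stood far from the other 3 (234 to 253). Its replicate II was also the highest untreated (122) and with BMP3 (108), and not with BMP4, BMP5 or BMP7. Among 20 groups of 4 samples looked at, chance alone flags about 1 in 20. Mogat2 and Dgat1 moved in opposite directions with BMP2 and BMP4, and the direct contrast of BMP2 minus BMP4 was -3.56 for Mogat2 and -2.81 for Dgat1 (limma, adjusted p = 1.92e-09 and 5.02e-09).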

How the results depend on the processing

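Of 1130 values of the 10 genes under alternatives, 1059 kept their direction and side of the threshold, 40 lost the call, 8 gained one and 23 turned sign, none of these 23 a called value. The count of genes changed by BMP5 was 3 without untreated IV (6 as reported) and 3 to 6 over all samples left out. Leaving out 1 sample gave 9 to 10 genes for BMP2, 8 to 10 for BMP4, 5 to 7 for BMP7 and 7 to 9 for Tgfb; over all genes, calls with BMP5 fell from 3884 to 2517 without BMP5 III and 2531 without BMP5 VI. With the replicate number as a block, 10 genes were called with BMP4, 8 with BMP5 and 8 with BMP7. For BMP2 and Tgfb, where not every pair passed 0.1 (r from 0.0182 to 0.421 and 0.00405 to 0.0696), the sample correlated best with its own number in 3 of 4 and 1 of 3 pairs, a hint from the data and not the design. The block called 10 and 9 there, and Dgat1 with BMP2, lower in 4 of 4 pairs, had an adjusted p of 0.000142 in limma. It changed no other call than those given with the genes.

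The values that turned sign were all near 0. For Mgll, BMP2 minus BMP4 was -0.021 with equal totals and -0.16 to 0.29 with 1 sample left out. For BMP5 minus BMP7, Dgat1 was 0.012 and 0.024, and Pnpla2 0.011 and 0.032, with equal totals and quantile normalization. With 1 sample left out the range was -0.25 to 0.091 for Gpam, -0.29 to 0.18 for Mogat2, -0.24 to 0.19 for Dgat1, -0.33 to 0.052 for Plin2, -0.25 to 0.081 for Plin3, -0.15 to 0.061 for Pnpla2 and -0.065 to 0.20 for Hilpda. The cause was not tested. Depth limits Mgll, Cidea and G0s2, and the Tgfb table has no depth.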
